A study of Mus musculus with 9 samples.

Results

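These results follow 41 genes of the early secretory pathway, picked by symbol from the 20627 rows of a gene count table: 9 translocon genes, 5 of signal peptidase, 6 of signal recognition, 7 of the oligosaccharyltransferase, 9 of the COPII coat and 5 of the COPI coat. Each had 1 row, and all 41 were among the 13311 genes that passed the filter on low counts. The libraries, 3 in each of 3 groups, were made from polyadenylated RNA of RAW264.7, a mouse cell line with macrophage properties. NC is the group without a stated treatment, glucose concentration or time. HG cells were kept in 35 mmol/l glucose over 6 h. HG-SIG cells had the same glucose and time, together with sitagliptin phosphate at a dose the labels do not give; it inhibits the enzyme dipeptidyl peptidase 4. The design has neither an osmotic control nor a group with sitagliptin at the glucose level of NC, and HG serves in both main comparisons.

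Proteins bound for the membrane or for secretion are recognised by the signal recognition particle as they leave the ribosome, and thread through the Sec61 channel into the endoplasmic reticulum (ER). There signal peptidase removes the signal sequence and the oligosaccharyltransferase attaches a preassembled glycan to asparagine residues. Vesicles coated with COPII carry the products towards the Golgi, and vesicles coated with COPI carry escaped ER proteins back. Macrophages use this route for lysosomal enzymes, surface receptors and cytokines.

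Promoter sequence was taken from RefSeq (GRCm38.p6), which matched 34 of the 41 genes over 250 bases before to 50 bases after the start, and was searched on both strands for 4 motifs. TGACGTG was found in the promoters of 4 of the 34 genes (11.8%), those of Copb1, Copb2, Sec23a and Sec24d. The share was 3.31% over the 9428 tested genes with a promoter searched. The promoters of these 4 genes are shown first, from 90 bases before to 30 bases after the start on the gene's strand, because they hold it. Capitals mark TGACGTG, its reverse complement CACGTCA, and CCACG or its reverse complement CGTGG; in each of the 4 the match to TGACGTG overlaps one to CCACG, since TGACGTGG contains both. They lie at chr7:114254651-114254770 on the minus strand (Copb1), chr9:98563641-98563760 on the plus strand (Copb2), chr12:59011988-59012107 on the minus strand (Sec23a) and chr3:123267406-123267525 on the plus strand (Sec24d).
Copb1: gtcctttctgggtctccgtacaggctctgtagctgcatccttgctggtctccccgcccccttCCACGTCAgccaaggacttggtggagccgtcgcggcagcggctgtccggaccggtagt
Copb2: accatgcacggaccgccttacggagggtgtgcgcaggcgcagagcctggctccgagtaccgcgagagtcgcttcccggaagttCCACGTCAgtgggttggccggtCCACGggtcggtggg
Sec23a: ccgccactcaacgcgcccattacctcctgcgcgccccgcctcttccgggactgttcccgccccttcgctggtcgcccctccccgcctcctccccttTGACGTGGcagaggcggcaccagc
Sec24d: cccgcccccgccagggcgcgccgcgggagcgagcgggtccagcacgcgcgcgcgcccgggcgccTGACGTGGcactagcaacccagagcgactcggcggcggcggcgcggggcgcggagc

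The promoters of Rpn1 and Spcs2 are shown because these genes had, after Sec11c, the lowest fold changes of the members in HG-SIG against HG. Each runs over the 250 bases before the start, at chr6:88084223-88084472 on the plus strand (Rpn1) and chr7:99858884-99859133 on the minus strand (Spcs2), and capitals mark CCAAT and CCACG.
Rpn1: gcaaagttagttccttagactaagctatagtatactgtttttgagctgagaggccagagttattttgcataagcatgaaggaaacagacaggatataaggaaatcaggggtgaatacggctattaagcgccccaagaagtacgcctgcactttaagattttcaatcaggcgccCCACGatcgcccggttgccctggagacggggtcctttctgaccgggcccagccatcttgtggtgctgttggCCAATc
Spcs2: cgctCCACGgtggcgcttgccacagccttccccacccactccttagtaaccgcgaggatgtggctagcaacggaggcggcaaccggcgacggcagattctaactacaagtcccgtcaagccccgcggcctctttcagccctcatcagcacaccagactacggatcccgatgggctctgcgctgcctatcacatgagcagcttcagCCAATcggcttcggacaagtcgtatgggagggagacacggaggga
CCAAT was present for 15 of the 34 genes (44.1%, against 43.6% of the 9428 tested genes searched) and CCACG for 22 (64.7%, against 52.4%). A gene counted if any of its promoters held the motif. The ER stress response element, in which CCAAT is followed at a fixed distance by CCACG, was in none of the 34. It was in 0.159% of the tested genes searched. Sec11c, Spcs3, Ostc, Sec61a1, Ssr2, Srp19 and Srp68 had no such promoter entry and were not searched. A match is a description of the letters, and a missing match says only that they are not in this window.

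Levels are CPM (read counts relative to the library total) scaled with TMM (edgeR's trimmed mean of M-values). Log2 fold changes come from edgeR's quasi-likelihood F-test, adjusted with Benjamini-Hochberg over all 13311 genes and called at an adjusted p under 0.05. Their standard error (SE) was derived from that test, as the absolute log2 fold change divided by the square root of its F statistic. Library totals ran from 23285821 to 31571578 counts, and the 41 genes took 0.676% to 0.688% of them. Whether replicates came from separate cultures is not in the labels; the p-values therefore reflect the spread among the libraries at hand, which may be technical. In these bulk samples fewer cells of a type and less RNA per cell cannot be told apart. TMM factors were 0.948 to 0.955 for NC, 0.961 to 0.977 for HG and 1.08 to 1.09 for HG-SIG. Scaling by library size alone therefore moved the median of all genes by 0.16 (log2) in HG-SIG against HG and by 0.03 in HG against NC.

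HG-SIG libraries held lower TMM-scaled levels of many translocation and glycosylation genes than HG libraries. In HG-SIG against HG, 22 of the 41 genes fell, 2 rose and 17 were not called, with a median log2 fold change of -0.14, where 26.8% of all genes tested were lower and 25.7% higher, with a median of 0.01 over those genes. All 7 oligosaccharyltransferase genes, 7 of 9 translocon genes and 4 of 5 signal peptidase genes fell. So did 3 of 9 COPII genes and 1 of 5 COPI genes, while none of the 6 signal recognition genes was called. No member passed an absolute log2 fold change of 1, the size the series states as its criterion, which 5.3% of all genes passed.

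The direction of these counts depends on the scaling. By library size alone 9 members were lower and 14 higher, where 13.7% of all genes were lower and 45.8% higher. By class it gave 2 lower and 1 higher of 9 translocon genes, 3 and 0 of 5 signal peptidase genes, 3 and 0 of 7 oligosaccharyltransferase genes, 0 and 5 of 9 COPII genes, 1 and 4 of 5 COPI genes and 0 and 4 of 6 signal recognition genes. With DESeq2 size factors 2 signal recognition genes, Srp68 and Srp72, were called lower, as they were not with TMM. Limma on log2(TPM + 1) uses the unit and tool that the series' design text names. It called 7 lower and 20 higher, against 12.1% and 54.8% of the 12099 genes with a length. Those 7 were Ssr1, Ssr4, Spcs2, Spcs3, Sec11c, Rpn1 and Ostc, so Stt3a and Cope were not called lower there. Ssr1, Ssr4, Spcs2, Spcs3, Sec11c, Stt3a, Rpn1, Ostc and Cope were lower, and Sec62 and Sec23a higher, under TMM, library size alone, upper quartile scaling and DESeq2 size factors. The sign of the fold change flipped among these 4 scalings for 15 of the 41 genes, of which 5 are COPII, 3 COPI and 3 signal recognition genes. Summed over the 41 genes, the level went from 7040 ± 99.2 (SD, n = 3) in HG to 6309 ± 44.5 in HG-SIG with TMM, but from 6827 ± 58.1 to 6839 ± 11.6 by library size alone.

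**Figure D1:**
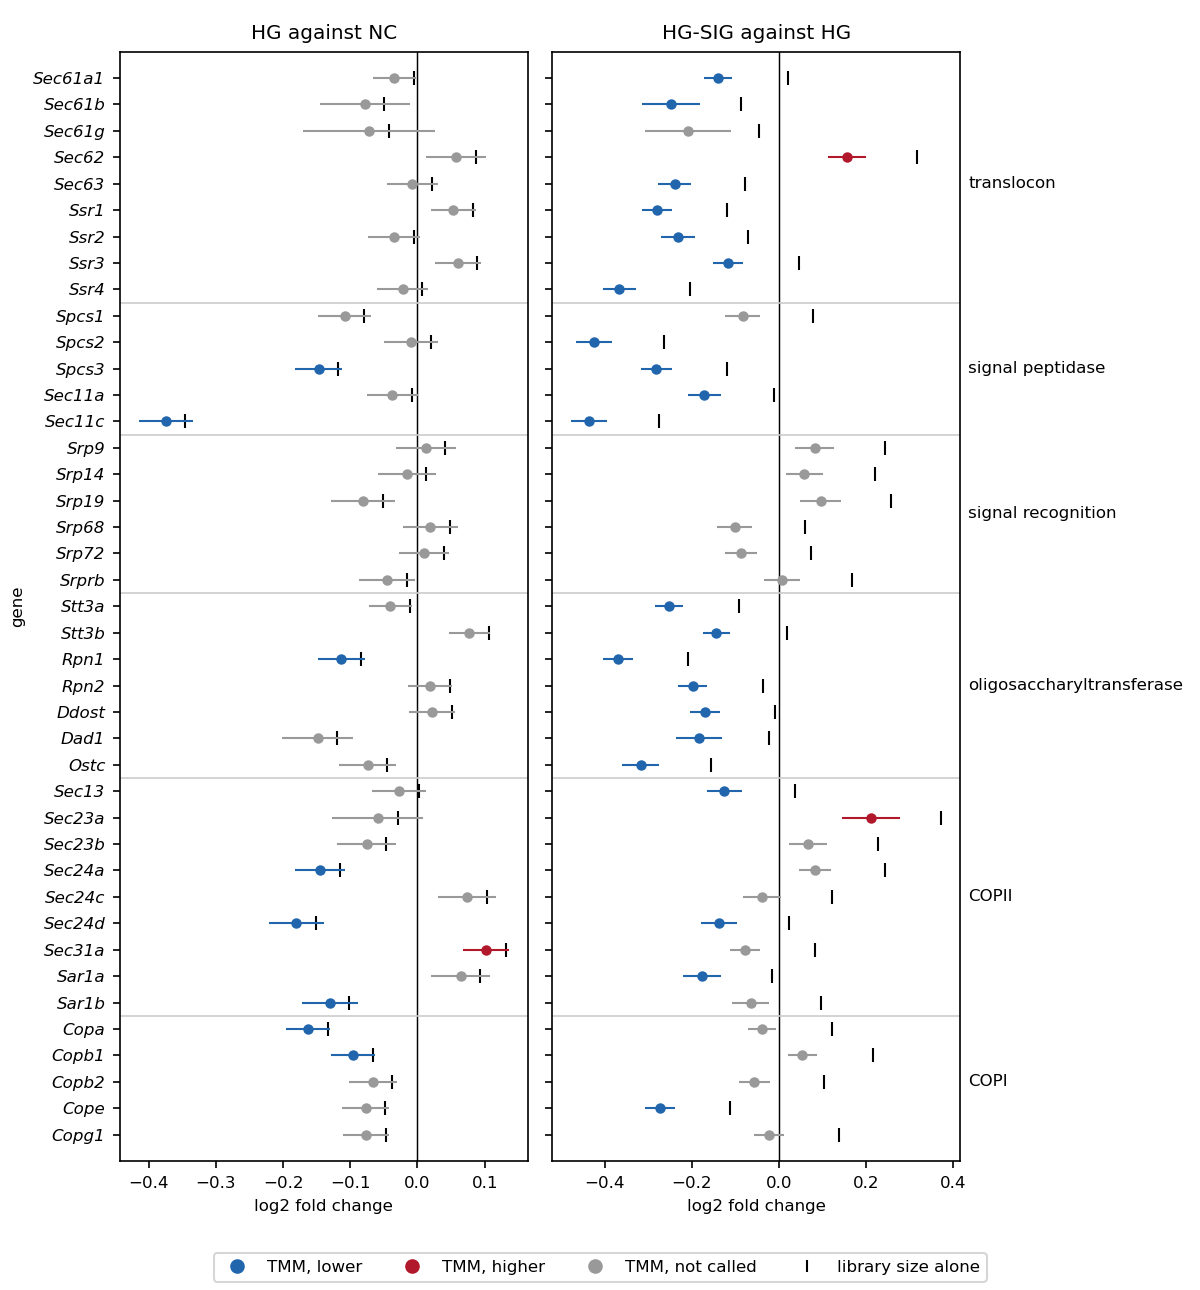
Log2 fold change of each of the 41 genes in HG against NC (left) and HG-SIG against HG (right); points and bars are the TMM-scaled edgeR estimate ± SE, coloured by call, and vertical ticks are the estimate by library size alone. On the right the ticks sit about 0.16 above the points, so that translocon points other than Sec62, signal peptidase and oligosaccharyltransferase points lie below 0 while ticks of the COPI genes other than Cope lie above it.

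HG against NC gave fewer calls. Among the 41 genes 8 fell, 1 rose and 32 were not called, with a median log2 fold change of -0.04, where 15.2% of all genes were lower and 14.3% higher. By library size alone 5 fell and 2 rose, against 13.0% and 18.6% of all genes. None passed an absolute log2 fold change of 1, where 2.85% of all genes did. The 8 were Sec11c and Spcs3 (signal peptidase), Rpn1 (oligosaccharyltransferase), Sec24a, Sec24d and Sar1b (COPII) and Copa and Copb1 (COPI), and the gene that rose was Sec31a. Scaled by library size alone, Rpn1, Sar1b and Copb1 lost their calls and Stt3b was called higher, and with DESeq2 size factors Spcs1 and Dad1 were called lower and the call of Sec31a was lost. Sec11c, Spcs3, Sec24a, Sec24d and Copa were called lower under all 4 scalings and whichever of the 9 libraries was left out. With limma on log2(TPM + 1) Sec24a was not called lower, whereas Sec11c, Spcs3, Sec24d and Copa were. Of the others, the call of Copb1 was lost in each of the 9 fits without 1 library and that of Sec31a in 8, all but the one without HG-SIG replicate 3. Rpn1 lost its call without NC replicate 1, 2 or 3 or HG replicate 3, and Sar1b without NC replicate 1 or 3 or HG replicate 1 or 3.

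**Figure D2:**
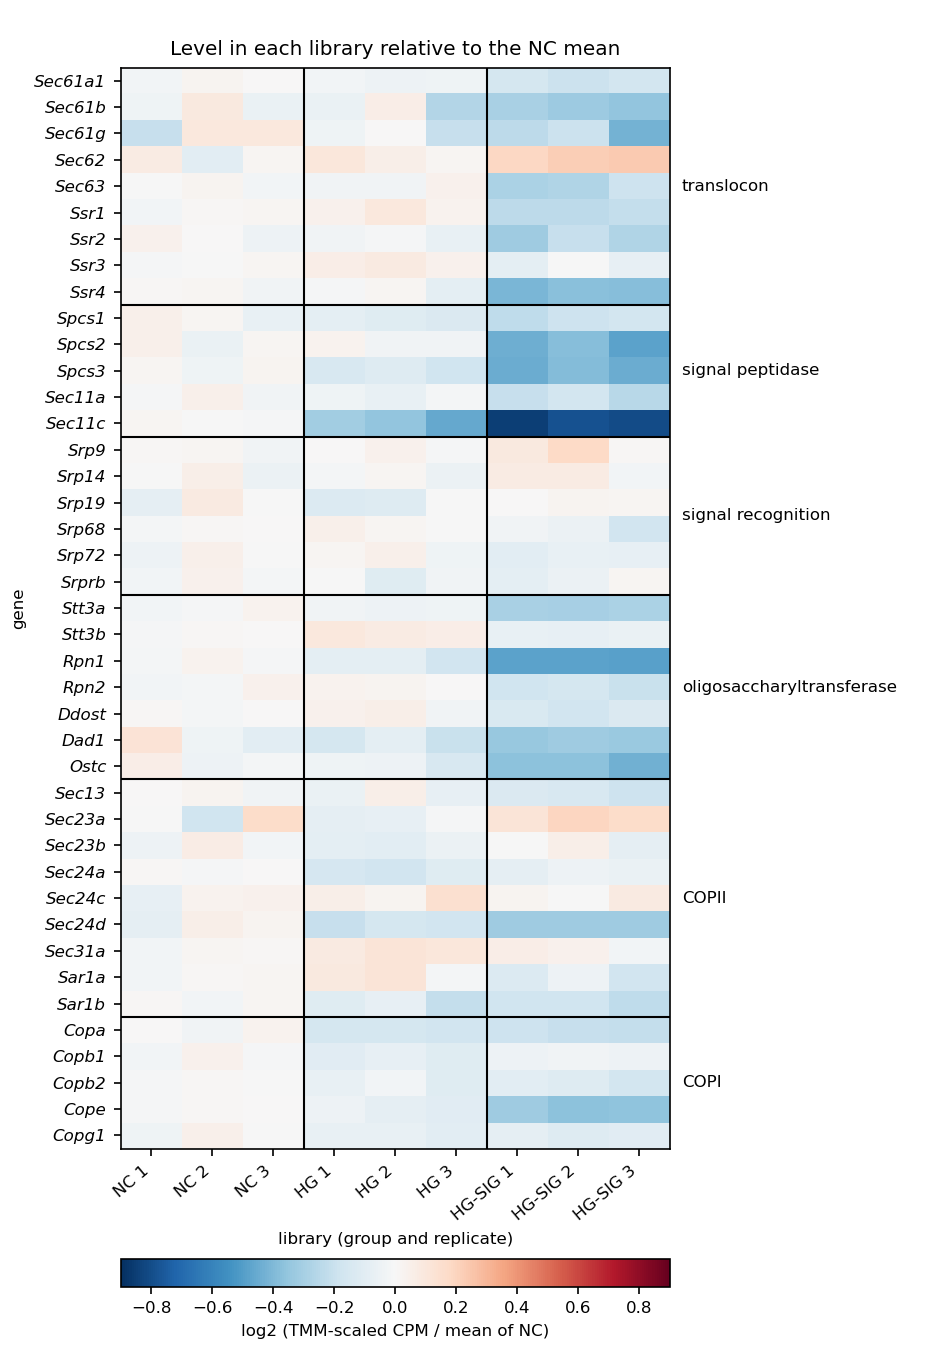
TMM-scaled level of the 41 genes (rows, grouped by role) in each of the 9 libraries (columns), as log2 of the ratio to the mean of the NC libraries. Sec11c is pale in NC, lower in HG and lowest in HG-SIG, and most other translocon, signal peptidase and oligosaccharyltransferase rows turn darker blue in the HG-SIG columns.

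Signal recognition comes first in the pathway. Srp9 and Srp14 form the part of the particle that pauses translation, Srp19, Srp68 and Srp72 are further protein subunits, and Srprb is the membrane-anchored subunit of the receptor. With TMM, log2 fold changes of the 6 genes ran from -0.08 to 0.02 in HG against NC and from -0.10 to 0.10 in HG-SIG against HG, and none was called. Srp68 read 109, 111 and 111 in NC, 114, 112 and 109.8 in HG, then 108, 107 and 98.0 in HG-SIG. Its HG-SIG libraries lay just below those of HG, at a log2 fold change of -0.10 ± 0.04 (adjusted p = 0.0519 by edgeR). Srp72 read 181, 193 and 186 in NC, 188, 193 and 182 in HG, then 175, 178 and 178 in HG-SIG, a fold change of -0.09 ± 0.04 in HG-SIG against HG (adjusted p = 0.0629 by edgeR). Srp19 read 54.6, 60.9 and 57.6 in NC, 53.0, 53.2 and 57.4 in HG, then 57.9, 58.5 and 58.3 in HG-SIG, and its fold change there was 0.10 ± 0.05 (adjusted p = 0.104 by edgeR). Srprb stayed between 82.9 and 92.0 in all 9 libraries. By library size alone Srp9, Srp14, Srp19 and Srprb were called higher in HG-SIG against HG, at 0.24, 0.22, 0.26 and 0.17.

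The channel itself is built by Sec61a1, Sec61b and Sec61g, and Sec62 and Sec63 assist the translocation of proteins that arrive after translation. Ssr1 to Ssr4 encode the translocon-associated protein complex beside the channel. In HG against NC none of these 9 genes was called, and fold changes ran from -0.08 to 0.06. Ssr1 read 458, 469 and 471 in NC, 478, 497 and 476 in HG, then 396, 396 and 402 in HG-SIG. All 3 HG libraries lay above NC and all 3 HG-SIG libraries below it; the rise in HG was not called (0.05 ± 0.03, adjusted p = 0.265 by edgeR), and the fall in HG-SIG against HG was -0.28 ± 0.03 (adjusted p = 2e-05 by edgeR). Ssr3 read 354, 355 and 359.8 in NC, 372, 376 and 366 in HG, then 335, 355 and 338 in HG-SIG, with fold changes of 0.06 ± 0.03 in HG against NC (adjusted p = 0.222) and -0.12 ± 0.03 in HG-SIG against HG (adjusted p = 0.0128, both by edgeR). The last call was lost without HG-SIG replicate 1, and by library size alone the value was 0.04.

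Ssr4 fell most among the translocon genes. It read 103, 103 and 99.4 in NC, 101, 103 and 95.9 in HG, then 76.5, 78.6 and 78.1 in HG-SIG, a fold change of -0.37 ± 0.04 in HG-SIG against HG (adjusted p = 5.4e-06 by edgeR) after -0.02 in HG against NC. The 3 HG-SIG libraries lay below the other 6, which overlapped. Sec63 read 142, 145 and 139 in NC, 139, 139 and 145 in HG, then 117, 117 and 125 in HG-SIG, and fell by 0.24 ± 0.04 with TMM (adjusted p = 0.00021 by edgeR). Scaled by library size alone, Ssr4 was still called (-0.20) and Sec63 was not (-0.078, adjusted p = 0.111 by edgeR). Sec62 rose. It read 101, 89.8 and 97.2 in NC, 103, 99.5 and 97.2 in HG, then 109, 112 and 113 in HG-SIG, a fold change of 0.16 ± 0.04 in HG-SIG against HG (adjusted p = 0.0102 by edgeR), and all HG-SIG libraries lay above the other 6. The annotation places 11.7% of its exonic length over 4933429H19Rik on the other strand, and whether counting used strand is not given in the sources used here.

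The other translocon genes not yet described lay lower in HG-SIG than in HG with TMM. Sec61a1, the pore subunit, changed by -0.14 ± 0.03 in HG-SIG against HG with TMM (adjusted p = 0.00282 by edgeR), but by 0.02 by library size alone. Ssr2 changed by -0.23 ± 0.04 (adjusted p = 0.00032 by edgeR), and the value for Sec61g was -0.21 ± 0.10, which was not called (adjusted p = 0.0958 by edgeR). Sec61b read 71.5, 78.1 and 70.5 in NC, 70.4, 76.4 and 61.2 in HG, then 59.8, 58.4 and 57.3 in HG-SIG. HG replicate 3 lay well below the other HG libraries, and the fold change of HG-SIG against HG was -0.25 ± 0.07 (adjusted p = 0.00804 by edgeR). Neither Ssr2 (-0.070) nor Sec61b (-0.086) was called by library size alone.

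Signal peptidase held the member with the largest change. Sec11c, one of 2 alternative catalytic subunits, read 167, 165 and 164 in NC, 133, 129 and 120.2 in HG, then 92.3, 96.2 and 94.9 in HG-SIG. The groups did not overlap, and the level fell by 0.37 ± 0.04 in HG against NC (adjusted p = 1.6e-05) and by 0.44 ± 0.04 in HG-SIG against HG (adjusted p = 2.5e-06, both by edgeR). HG-SIG against NC gave -0.81 ± 0.04 (adjusted p = 3.2e-09 by edgeR), a level 43.0% below NC. Sec11a, the other catalytic subunit, read 71.1, 73.8 and 70.1 in NC, 69.9, 68.5 and 70.9 in HG, then 61.9, 63.8 and 60.2 in HG-SIG, with fold changes of -0.04 ± 0.04 in HG against NC (adjusted p = 0.51) and -0.17 ± 0.04 in HG-SIG against HG (adjusted p = 0.00231, both by edgeR). By library size alone its second value was -0.01.

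Of the accessory subunits of signal peptidase, Spcs3 was called lower in both comparisons. Spcs3, which the complex needs for activity, read 310.1, 299 and 311 in NC, 278, 283 and 271 in HG, then 225, 234 and 225 in HG-SIG, and fell by 0.15 ± 0.04 in HG against NC (adjusted p = 0.00675) and by 0.28 ± 0.04 in HG-SIG against HG (adjusted p = 2.8e-05, both by edgeR), with no overlap between groups. Spcs2 read 159, 148 and 156 in NC, 158, 151 and 150.5 in HG, then 114, 118 and 110.4 in HG-SIG. NC and HG overlapped (-0.01), and HG-SIG lay below both, at -0.42 ± 0.04 against HG (adjusted p = 2.9e-06 by edgeR). The value for Spcs1 was -0.08 ± 0.04 in HG-SIG against HG, which was not called (adjusted p = 0.0915 by edgeR), and 16.3% of its exonic length overlaps Glt8d1 on the other strand.

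The oligosaccharyltransferase exists in forms built around Stt3a, which works on chains entering through the channel, or Stt3b, which can act later. Rpn1, Rpn2, Ddost and Dad1 are shared subunits, and Ostc belongs to the form with Stt3a. Rpn1 read 499, 515 and 500.2 in NC, 475, 475 and 449 in HG, then 362, 361 and 360.4 in HG-SIG. It fell by 0.11 ± 0.04 in HG against NC (adjusted p = 0.0269) and by 0.37 ± 0.04 in HG-SIG against HG (adjusted p = 2.6e-06, both by edgeR), and the 3 groups did not overlap. Stt3a read 439, 442 and 455 in NC, 435, 431 and 434 in HG, then 363, 362 and 365 in HG-SIG, a fold change of -0.25 ± 0.03 in HG-SIG against HG (adjusted p = 3e-05 by edgeR). Stt3b read 199, 202 and 202 in NC, 215, 212 and 209.9 in HG, then 192, 191 and 193 in HG-SIG. Its HG libraries lay above NC by 0.08 ± 0.03, which was not called (adjusted p = 0.0789 by edgeR) but was by library size alone (0.11, adjusted p = 0.0183 by edgeR) and with upper quartile scaling (0.096, adjusted p = 0.0318 by edgeR). Its value for HG-SIG against HG was -0.14 ± 0.03 (adjusted p = 0.00178 by edgeR) with TMM and 0.02 by library size alone.

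Ostc read 128, 118 and 121 in NC, 119, 118 and 111 in HG, then 94.6, 94.8 and 90.6 in HG-SIG, and fell by 0.32 ± 0.04 in HG-SIG against HG (adjusted p = 5e-05 by edgeR), with all HG-SIG libraries below the other 6. Dad1 read 83.4, 74.4 and 71.8 in NC, 68.6, 71.8 and 66.7 in HG, then 60.3, 61.4 and 60.7 in HG-SIG. Its NC and HG libraries overlapped (-0.15 ± 0.05, adjusted p = 0.0508 by edgeR), and HG-SIG against HG gave -0.18 ± 0.05 (adjusted p = 0.0109 by edgeR). Rpn2 and Ddost changed by -0.20 ± 0.03 and -0.17 ± 0.03 there (adjusted p = 0.00028 and 0.0012 by edgeR), and by library size alone the values were -0.023 for Dad1, -0.037 for Rpn2 and -0.0084 for Ddost, none of them called.

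Of the 9 COPII genes, 3 fell and 1 rose in each main comparison, where all genes gave 15.2% lower and 14.3% higher in HG against NC and 26.8% and 25.7% in HG-SIG against HG. Sar1a and Sar1b are the small GTPases that start the coat, Sec23a and Sec23b and the Sec24 proteins form its inner layer and select cargo, and Sec13 and Sec31a form the outer cage. Sec24d read 70.5, 77.4 and 75.9 in NC, 64.6, 66.7 and 66.1 in HG, then 59.8, 59.8 and 59.8 in HG-SIG. It fell by 0.18 ± 0.04 in HG against NC (adjusted p = 0.00496) and by 0.14 ± 0.04 in HG-SIG against HG (adjusted p = 0.0129, both by edgeR), the second of which became 0.02 by library size alone. The near-identical HG-SIG values come from counts of 1895, 1862 and 2005, which are in proportion to the scaled library sizes. The SD of these values, 0.000436, is far below the 1.37 CPM that counting noise alone would give, so it does not measure precision. Sec24a read 48.8, 48.2 and 48.7 in NC, 43.7, 43.2 and 45.0 in HG, then 46.0, 47.1 and 46.6 in HG-SIG, and fell by 0.15 ± 0.04 in HG (adjusted p = 0.0101 by edgeR), with HG-SIG between the other groups.

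Sec23a read 49.3, 43.8 and 55.4 in NC, 46.7, 47.1 and 49.2 in HG, then 53.5, 56.5 and 55.4 in HG-SIG, with NC replicates spread more widely than the others. It rose in HG-SIG against HG by 0.21 ± 0.07 (adjusted p = 0.0177 by edgeR), a call lost without HG replicate 1 or 2 or HG-SIG replicate 2, and its NC and HG-SIG libraries overlapped. Sec23b read 106, 115 and 108 in NC, 104, 103 and 106 in HG, then 109.8, 114 and 104 in HG-SIG and was not called in HG-SIG against HG (0.07 ± 0.04, adjusted p = 0.218 by edgeR). Sar1a read 144, 147 and 148 in NC, 155, 159 and 145 in HG, then 135, 142 and 130.0 in HG-SIG, and HG-SIG against HG gave -0.18 ± 0.04 (adjusted p = 0.00437 by edgeR), with all HG-SIG libraries below the other 6, but -0.016 and no call by library size alone. Sar1b read 79.5, 77.6 and 80.0 in NC, 73.2, 75.1 and 68.2 in HG, then 69.9, 69.9 and 67.3 in HG-SIG, with -0.13 ± 0.04 in HG against NC (adjusted p = 0.0313 by edgeR). Its NC and HG libraries did not overlap, whereas HG and HG-SIG did.

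Of the outer coat, Sec31a was 172 ± 2.53 in NC and 185 ± 2.44 in HG (SD, n = 3). The log2 fold change was 0.10 ± 0.03 (adjusted p = 0.0427 by edgeR). Sec13 was 135 ± 6.58 in HG and 124 ± 2.41 in HG-SIG, a change of -0.12 ± 0.04 (adjusted p = 0.0196 by edgeR) that lost its call without HG replicate 2 or HG-SIG replicate 3 and was 0.04 by library size alone. Sec24c was not called in either comparison.

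All 5 COPI coatomer genes lay lower in HG than in NC without overlap, where 20.8% of all genes did, but only Copa and Copb1 were called. Copa, the alpha subunit that binds retrieval signals, read 349.5, 342 and 357 in NC, 314, 313 and 309.9 in HG, then 308, 303 and 301 in HG-SIG, and fell by 0.16 ± 0.03 (adjusted p = 0.00216 by edgeR). Copb1 read 226, 236 and 228 in NC, 214, 218 and 213 in HG, then 223, 225 and 223 in HG-SIG, a fall of 0.10 ± 0.03 (adjusted p = 0.0431 by edgeR). HG-SIG against HG was -0.04 ± 0.03 for Copa and 0.05 ± 0.03 for Copb1, neither called (adjusted p = 0.332 and 0.185 by edgeR). In that comparison 4 of the 5 COPI genes were called higher by library size alone, Copa at 0.12, Copb1 at 0.21, Copb2 at 0.10 and Copg1 at 0.14, and Copb1 also with upper quartile scaling (0.096). Cope, the epsilon subunit, read 82.7, 83.9 and 83.3 in NC, 80.6, 78.7 and 77.4 in HG, then 66.8, 64.4 and 64.8 in HG-SIG. It fell by 0.27 ± 0.03 in HG-SIG against HG (adjusted p = 3.4e-05 by edgeR), after -0.08 in HG, and the groups did not overlap. Copb2 read 235, 239 and 237 in NC, 227, 232 and 219.7 in HG, then 222, 219 and 212 in HG-SIG, and was not called in HG-SIG against HG (-0.06 ± 0.04, adjusted p = 0.197 by edgeR), nor was Copg1 (-0.02 ± 0.03, adjusted p = 0.607 by edgeR).

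Ratios within a library do not depend on its scaling. The summed level of signal peptidase genes divided by that of signal recognition genes was 1.36 ± 0.0527 for NC, 1.23 ± 0.0147 for HG and 1.01 ± 0.0104 for HG-SIG (SD, n = 3). The difference from HG to HG-SIG was -17.7% for signal peptidase, -14.5% for the oligosaccharyltransferase and -11.1% for the translocon, each without overlap between groups. It was -2.57% for COPII, also without overlap, and -1.22% for COPI, with overlap. From NC to HG it was -9.29% for signal peptidase and -6.55% for COPI, both without overlap, and the other 3 ratios overlapped. These are descriptions without a test, and the ratio moves with its denominator as well as its numerator.

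**Figure D3:**
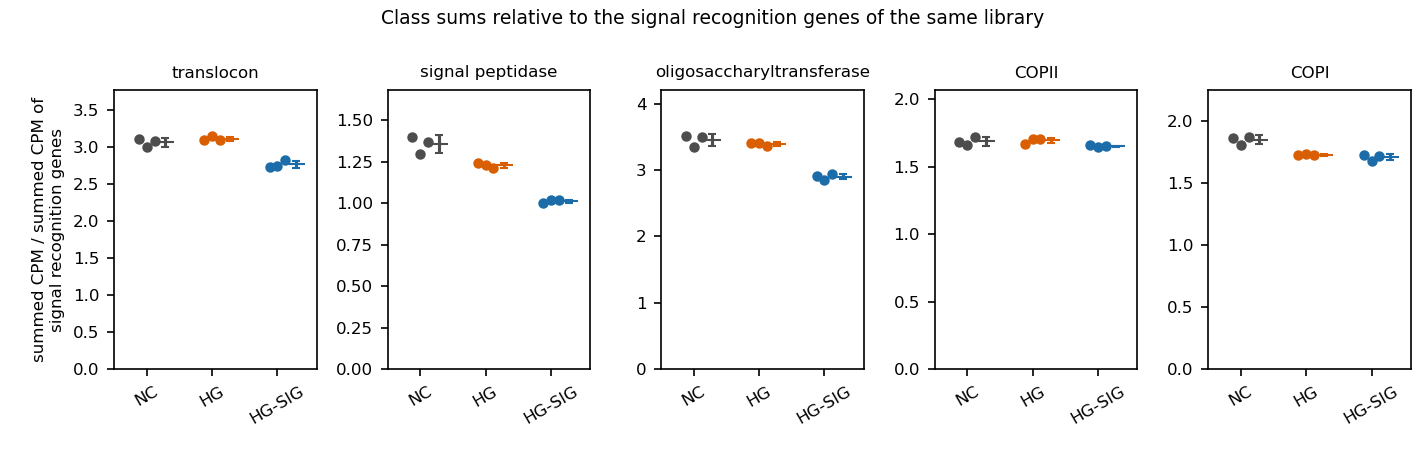
Summed level of each class divided by the summed level of the 6 signal recognition genes of the same library; points are libraries, and bars beside them the mean ± SD of 3 libraries. The signal peptidase points step down from 1.36 for NC to 1.23 for HG and 1.01 for HG-SIG, whereas the COPII points stay between 1.65 and 1.72.

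Ratios of counts between related genes with overlapping roles follow. The log2 ratio of Sec11a to Sec11c counts was -1.21 ± 0.04 for NC, -0.87 ± 0.09 for HG and -0.61 ± 0.04 for HG-SIG (SD, n = 3). That of Stt3a to Stt3b was 1.15 ± 0.02, 1.03 ± 0.02 and 0.92. Neither pair overlapped between groups. The SD of 0.0006 for Stt3a to Stt3b in HG-SIG is below the 0.02 that counting noise alone would give, as is the SD of 0.0032 for Sar1a to Sar1b in HG, so neither measures precision. Sar1a to Sar1b went from 0.89 ± 0.04 for NC to 1.08 for HG and 0.97 ± 0.04 for HG-SIG. Sec24a to Sec24d overlapped between NC and HG, at -0.62 ± 0.08 and -0.58 ± 0.04, and was -0.36 ± 0.02 in HG-SIG. Its SD was also below counting noise in HG-SIG (0.0171 against 0.0498) and in HG (0.0397 against 0.0557). The same held for Stt3a to Stt3b in HG (0.0161 against 0.024), so these SDs do not measure precision either. Sec23a to Sec23b overlapped between NC and HG and was higher in HG-SIG than in HG by 0.15. In a two-sided exact permutation test each difference without overlap had p = 0.1, the smallest that 3 against 3 allows, and an adjusted p of 0.125 over 15 tests, so that this test could not pass 0.05.

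**Figure D4:**
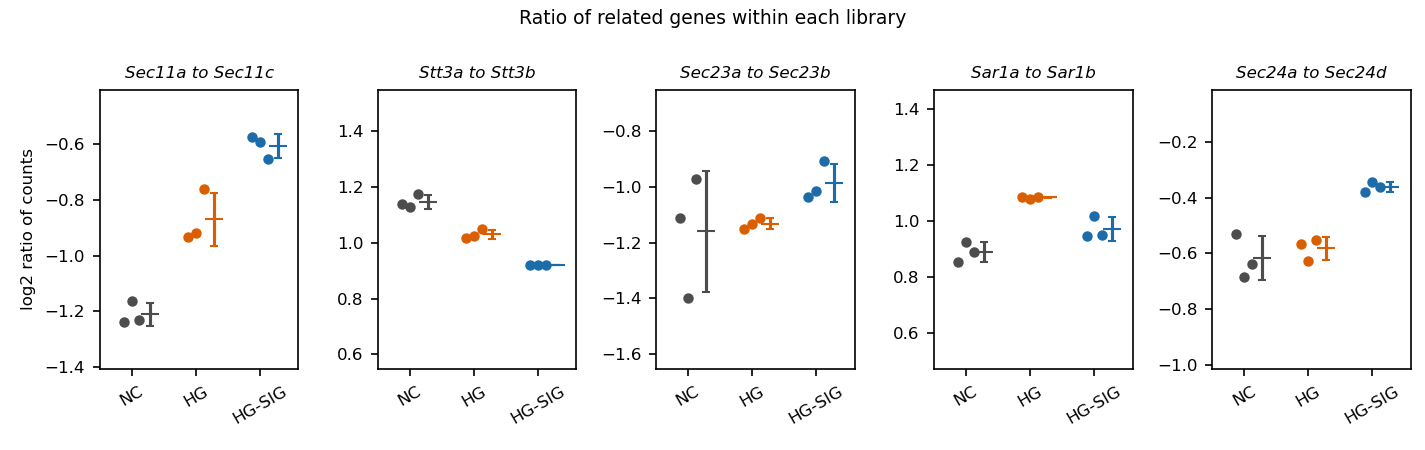
Log2 ratio of the counts of 5 pairs of related genes in each library; points are libraries, and bars the mean ± SD of 3 libraries, on axes of equal span that do not start at 0. The ratio of Sec11a to Sec11c moves up from NC to HG to HG-SIG, and that of Stt3a to Stt3b moves down.

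Against NC, HG-SIG had 26 members lower, 1 higher and 14 not called, where 28.7% of all genes were lower and 29.9% higher. By library size alone 10 were lower and 16 higher, against 15.9% and 51.0% of all genes. None passed an absolute log2 fold change of 1, where 8.51% of all genes did. Beside Sec11c, the values of HG-SIG against NC were -0.48 ± 0.04 for Rpn1, -0.43 ± 0.04 for Spcs2, -0.43 ± 0.04 for Spcs3, -0.39 ± 0.04 for Ssr4, -0.39 ± 0.04 for Ostc and -0.35 ± 0.03 for Cope. Sec62 was the member that rose (0.21 ± 0.04, adjusted p = 0.00113 by edgeR).

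Other genes of the route were read from 8 further lists. In HG-SIG against HG, where 26.8% of all genes were lower and 25.7% higher, 11 of 18 cargo receptor genes fell and 3 rose, among them Surf4, a receptor for soluble cargo (-0.41 ± 0.04), and Ergic1 (-0.38 ± 0.04), both lower. Of 27 genes that build or transfer the glycan precursor, 10 fell and 6 rose. Nus1, a subunit of the enzyme that makes dolichol chains, changed by -0.36 ± 0.04, and Dpagt1, which starts the glycan, by -0.36 ± 0.04. Of 12 trimming and quality control genes 4 fell and 3 rose. Edem1, which directs misfolded glycoproteins to degradation, changed by -0.76 ± 0.04 and Calr, the chaperone calreticulin, by -0.45 ± 0.04. Of 25 translocation helpers 4 fell and 6 rose, with Dnajc3 at -0.39 ± 0.04 and Emc9 at 0.78 ± 0.11. These 4 lists gave, by library size alone, where 13.7% of all genes were lower and 45.8% higher, 6 lower and 7 higher for cargo receptors, 7 and 13 for the glycan precursor, 3 and 8 for trimming and 1 and 15 for translocation helpers.

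Against the same shares of all genes, among other COPII and exit site genes 3 of 15 fell and 3 rose, with Klhl12, an adaptor that enlarges COPII vesicles, at 0.71 ± 0.06 and Sec16b at -1.23 ± 0.19. Of 16 other COPI and retrieval genes 3 fell and 2 rose, Copg2 at 0.21 ± 0.04 and Gbf1, an exchange factor for Arf1, at 0.27 ± 0.05. In the hexosamine and nucleotide sugar list 3 of 9 fell and 2 rose, with Gmppb at -0.38 ± 0.05 and Pgm3 at 0.31 ± 0.05. Of 14 genes of the unfolded protein response, which include ER chaperones beside regulators, 11 fell and 1 rose. Xbp1, a transcription factor of that response, read 213, 215 and 213 in NC, 262, 260.1 and 272 in HG, then 129, 134 and 126 in HG-SIG, so that HG lay above NC (0.31 ± 0.04) and HG-SIG below both (-1.03 ± 0.04 against HG). Hspa5, the ER chaperone BiP, changed by -0.84 ± 0.04. The lower and higher counts by library size alone were 1 and 10 for other COPII genes and 0 and 8 for other COPI genes. They were 1 and 4 for the hexosamine list and 10 and 3 for genes of the unfolded protein response.

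In HG against NC, where 15.2% of all genes were lower and 14.3% higher, the same lists gave 5 lower and 3 higher of 25 translocation helpers, 6 and 2 of 27 glycan precursor genes, and 3 and 2 of 9 hexosamine genes. Gfpt1, the first enzyme of the hexosamine route, changed by -0.42 ± 0.04 and Uap1, which makes its end product, by -0.16 ± 0.04. Srpr, the other subunit of the signal recognition receptor, changed by -0.26 ± 0.03. Srp54c changed by -0.34 ± 0.04, but it is nearly identical to its neighbours Srp54a and Srp54b and reads could be split between them. Those neighbours were also called lower, at -0.26 ± 0.05 (adjusted p = 0.00169) and -0.22 ± 0.04 (adjusted p = 0.00046, both by edgeR). Srpr and the Srp54 genes are not among the signal recognition members described above. Trimming genes gave 2 lower and 0 higher of 12, with Edem1 at -0.24 ± 0.04 and Man1a at -0.26 ± 0.07, and other COPII genes 2 and 1 of 15, with Klhl12 at 0.19 ± 0.06. Other COPI genes gave 2 and 1 of 16, and cargo receptors 2 and 2 of 18, with Tmed1 at 0.28 ± 0.07. Unfolded protein response genes gave 3 and 3 of 14, with Atf4 at -0.51 ± 0.04. By library size alone 13.0% of all genes were lower and 18.6% higher. Lower and higher counts were then 4 and 4 for translocation helpers and 5 and 3 for the glycan precursor. Hexosamine genes gave 2 and 3, trimming genes 2 and 0 and unfolded protein response genes 3 and 3. Other COPII genes gave 0 and 4, other COPI genes 0 and 2 and cargo receptors 0 and 3.

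Markers of the cell line itself differed between these groups. Of 9 tested macrophage markers, all 9 were lower in HG-SIG against HG, where 26.8% of all genes were. By library size alone 8 were, against 13.7% of all genes. In HG against NC 5 were lower, 2 higher and 2 not called, where 15.2% of all genes were lower and 14.3% higher. In CPM the summed level of the 10 listed was 11128 to 11588 for NC, 10026 to 10792 for HG and 5225 to 5327 for HG-SIG. The 5 listed lymphocyte markers in the table summed to 0.0642 to 0.157, the 3 epithelial ones to 0 to 0.0669 and the 3 fibroblast ones to 0.0348 to 0.201, so that markers of those cell types were at or near 0 in every library, and none of them passed the filter. The 4 plasma cell markers summed to 38.2 to 42.6 for NC, 28.2 to 30.3 for HG and 26.1 to 27.1 for HG-SIG, but only 1 of the 4 passed the filter. The part of the macrophage markers' change in the results above was not tested.

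Per kilobase of exon, the mean level over the 9 libraries was highest for Ddost (124), Ssr2 (121) and Rpn1 (98.4), and lowest for Sec24a (4.34) and Sec61g (4.38), on a TMM-scaled scale that counts every annotated exon.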

How the data were processed

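Polyadenylated RNA of 9 RAW264.7 libraries was analysed, 3 each for NC, HG and HG-SIG, grouped by title. The authors deposited gene counts, all whole numbers. The submitters' processing notes name Bowtie2 2.3.5, RSEM and the build mm10; RSEM estimates fractional counts, and whether they were rounded is not stated. The annotation used and the strand setting are likewise not stated. Of the 20627 rows, 1996 were unannotated loci without a gene identifier, with 5.85% to 6.21% of the counts. They stayed in library sizes and tests, and leaving them out was an alternative.

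Counts were filtered with filterByExpr, scaled with TMM and fitted over all 9 libraries with edgeR 4.0.16 in R 4.3.3. Alternatives were other scalings, no filter, DESeq2 1.42.0, limma 3.58.1 (voom, and on log2(TPM + 1)), a fit of only the groups compared, no unannotated loci, a replicate block, and leaving out each library. On counts simulated for HG-SIG against HG (13172 genes, 200 changed), edgeR recovered 38.8%, 64.6% and 87.9% of log2 changes of 0.25, 0.5 and 1. Of its calls there, 4.54% were false. In the deposited counts 52.5% of all genes were called in HG-SIG against HG. Whether these shares hold when that many genes differ, and how calls then depend on scaling, was not tested. Same-numbered libraries deviated together with r from -0.0027 to 0.0988, and they were not treated as paired in the main fit.

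Coordinates and exon lengths are from GENCODE M21 (GRCm38, the assembly of mm10). The 41 genes, the other lists and the rule for named genes (within each class the smallest p-values of each main comparison and related pairs, and of other lists up to 2 called genes) were chosen with earlier results of these data known. Sec62, Sec61b, Sec31a and Sec13 were given values beyond that rule after their values were seen.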

Additional observations from a re-analysis of the deposited data

How the results depend on the processing

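Among members called, HG against NC gave 1 higher and 8 lower. The higher count became 2 by library size alone and with upper quartile scaling, 4 with limma on log2(TPM + 1), and 0 with DESeq2 size factors, no filter, DESeq2 and a fit of only the groups compared; the lower count became 5 by library size alone, with upper quartile scaling and with only the groups compared. Over all genes in HG against NC, 18.6% were higher and 13.0% lower by library size alone, and 17.0% and 13.7% with upper quartile scaling. The shares were 19.6% and 13.5% with limma on log2(TPM + 1) and 13.8% and 15.7% with DESeq2 size factors. Without the filter 1905 of 20490 genes were higher, and with DESeq2 1579 of 13311. With only the groups compared 1596 of 12891 were higher and 1906 lower. HG-SIG against HG gave 2 higher and 22 lower members. These became 14 and 9 by library size alone and 20 and 7 with limma on log2(TPM + 1). With upper quartile scaling 7 were higher. Over all genes these settings gave 45.8% and 13.7%, 54.8% and 12.1%, and 30.7% higher. HG-SIG against NC gave 1 higher and 26 lower members. These became 16 and 10 by library size alone and 20 and 7 with limma on log2(TPM + 1). The higher count became 5 with upper quartile scaling and 2 without the filter. Over all genes the first 2 settings gave 51.0% and 15.9%, and 58.6% and 14.5%. Upper quartile scaling gave 36.6% higher, and without the filter 4019 of 20490 genes were higher. Each of the 6 member counts was 0 when an absolute log2 fold change over 1 was required. Leaving out 1 library gave 0 to 1 members higher and 5 to 8 lower in HG against NC. It gave 1 to 4 and 21 to 24 in HG-SIG against HG, and 1 to 2 and 23 to 26 in HG-SIG against NC. These fits tested 13454 to 13545 genes. Over all genes they gave 1405 to 1871 higher and 1657 to 2129 lower in HG against NC. In HG-SIG against HG the ranges were 2962 to 3557 and 3194 to 3590. In HG-SIG against NC they were 3559 to 4171 and 3539 to 4020.

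With the replicate number as a block, HG-SIG against NC gave 3 members higher in place of 1, and the other 5 counts stayed within 1.5 times. The labels do not say whether the numbers pair the libraries. The r of deviations was -0.0027 to 0.0988 for 9 same-numbered pairs and -0.0768 to 0.0408 for 18 others. With the block, calls over all genes went from 1899 higher and 2028 lower to 2291 and 2372 in HG against NC. They went from 3417 and 3572 to 3715 and 3848 in HG-SIG against HG, and from 3978 and 3823 to 4228 and 4054 in HG-SIG against NC. A weak effect shared by same-numbered libraries was not tested.

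In HG-SIG against HG the log2 fold change of 14 members given with values went from negative to positive by library size alone: 0.022 for Sec61a1, 0.045 for Ssr3, 0.077 for Spcs1, 0.059 for Srp68, 0.074 for Srp72, 0.017 for Stt3b, 0.036 for Sec13, 0.12 for Sec24c, 0.023 for Sec24d, 0.082 for Sec31a, 0.096 for Sar1b, 0.12 for Copa, 0.10 for Copb2 and 0.14 for Copg1. With limma on log2(TPM + 1) 20 did so: 0.065 for Sec61a1, 0.0009 for Sec61g, 0.088 for Ssr3, 0.12 for Spcs1, 0.033 for Sec11a, 0.10 for Srp68, 0.12 for Srp72, 0.061 for Stt3b, 0.0067 for Rpn2, 0.035 for Ddost, 0.021 for Dad1, 0.080 for Sec13, 0.16 for Sec24c, 0.065 for Sec24d, 0.12 for Sec31a, 0.028 for Sar1a, 0.14 for Sar1b, 0.16 for Copa, 0.15 for Copb2 and 0.18 for Copg1. With upper quartile scaling 3 did so: 0.0042 for Sec24c, 0.0030 for Copa and 0.020 for Copg1. Srprb became -0.0016 with DESeq2 size factors and with DESeq2. In HG against NC 5 became positive by library size alone (0.022 for Sec63, 0.0066 for Ssr4, 0.020 for Spcs2, 0.013 for Srp14 and 0.0018 for Sec13), 5 with limma on log2(TPM + 1) (0.024 for Sec63, 0.0082 for Ssr4, 0.023 for Spcs2, 0.015 for Srp14 and 0.0036 for Sec13) and 3 with upper quartile scaling (0.011 for Sec63, 0.0092 for Spcs2 and 0.0030 for Srp14). Without 1 library the sign changed only for values not called, with ranges of -0.033 to 0.0058 for Sec63, -0.044 to 0.0034 for Ssr4, -0.040 to 0.013 for Spcs2, -0.0046 to 0.021 for Srp9, -0.042 to 0.0099 for Srp14, -0.011 to 0.033 for Srp72 and -0.14 to 0.030 for Sec23a in HG against NC and -0.024 to 0.030 for Srprb and -0.062 to 0.0004 for Sec24c in HG-SIG against HG. The median of all genes moved by 0.16 by library size alone in HG-SIG against HG; beyond that, the cause was not tested.

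The log2 change of summed levels by library size alone was, in HG against NC, 0.043 for the translocon, -0.12 for signal peptidase, 0.021 for signal recognition, -0.0027 for the oligosaccharyltransferase, 0.026 for COPII and -0.077 for COPI. In HG-SIG against HG it was -0.027 for the translocon, -0.14 for signal peptidase, 0.14 for signal recognition, -0.084 for the oligosaccharyltransferase, 0.10 for COPII and 0.12 for COPI. With upper quartile scaling HG against NC gave 0.032 for the translocon, -0.013 for the oligosaccharyltransferase and -0.087 for COPI. With the same scaling HG-SIG against HG gave -0.15 for the translocon, -0.26 for signal peptidase, 0.024 for signal recognition, -0.20 for the oligosaccharyltransferase, -0.014 for COPII and 0.0059 for COPI.

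Chosen after seeing the data, the ratios of class sums to signal recognition were recomputed without each library. In HG-SIG against HG the difference was -11.9 to -10.5% for the translocon, -18.2 to -17.2% for signal peptidase, -15.1 to -13.8% for the oligosaccharyltransferase, -3.25 to -2.16% for COPII and -1.79 to -0.395% for COPI. In HG against NC it was -11.2 to -7.71% for signal peptidase and -7.56 to -5.89% for COPI. The counts of the further lists were also taken under each alternative after seeing the data.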

Other observations

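By the GENCODE M21 gene bounds Sec24a and Sar1b lie head to head on chromosome 11, with starts at 51763634 and 51763687 in GRCm38. The RefSeq promoter searched for Sec24a lies at 51756785 to 51757084, inside its gene bounds, so the distance between the starts differs by source. Both genes were lower in HG than in NC (-0.15 ± 0.04 and -0.13 ± 0.04). In HG-SIG against HG their fold changes were 0.08 ± 0.04 and -0.07 ± 0.04, neither called. The pair was chosen after its values were seen.

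The near-identical HG-SIG levels of Sec24d prompted a look at all genes, chosen after its values were seen. Among genes with at least 300 counts in a group, 8 of 10323 in NC, 5 of 10150 in HG and 3 of 10458 in HG-SIG had a spread in the lower 0.001 of counting noise, where counting noise alone would give 10.3, 10.2 and 10.5. These counts cannot show how often counting noise would give a spread as small as that of Sec24d. Sec24d had the smallest spread in HG-SIG. Its fold changes use a spread estimated over all 9 libraries with information from other genes.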
